A study of Mus musculus with 14 samples.

Results

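The ribosomal protein genes of the cytoplasm were taken as every protein-coding gene whose symbol begins with Rpl or Rps and follows the numbering of the ribosomal proteins, together with Rplp0, Rplp1, Rplp2 and Rpsa; the Rps6k kinases and pseudogenes were left out. The rule found 85 of the 17890 genes in the table, 53 of the large subunit and 32 of the small subunit. No measured value entered the rule. Messenger RNA had been sequenced from primary cells labelled bone marrow derived macrophages, from male C57BL/6J mice aged 8 weeks at allocation. Mice of both groups were fasted for 12 h. The diabetic mice were then given streptozotocin, a toxin of the insulin-producing beta cells. It was injected into the abdomen in daily amounts of 42 to 45 mg/kg over 5 days. These mice counted as diabetic above 16.9 mmol/L blood glucose and stayed hyperglycaemic for 6 weeks. Bone marrow progenitors of both groups then spent 7 days in culture at 5 mmol/L glucose with recombinant M-CSF, the growth factor of macrophages. The table holds 4 libraries named D, the initial of the diabetic group, and 4 named M, which were matched to the healthy controls by elimination since no label explains the letter. Each direction below is that of D against M, and all of them would be inverted if the letters stood for the opposite groups. No label ties a library to an animal of its own, so the p-values reflect only how these samples scatter, and that scatter may be technical. Another 6 samples of the series, 3 diabetic-trained and 3 untrained, belong to its second phase and were not analysed here.

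The cytoplasmic ribosome joins a small subunit, which reads the messenger RNA, to a large subunit, which forms the peptide bond and holds the tunnel through which the new protein leaves. Nearly every ribosomal protein is present as a single copy in each ribosome, so the cell makes them in matched amounts. Their messengers are among the most abundant of a growing cell and belong to the class that starts with a C followed by an unbroken stretch of pyrimidines (C or T), the TOP messengers, whose translation is under the control of the kinase mTOR. In the marrow, loss of 1 copy of any of several of these genes causes Diamond-Blackfan anaemia in humans.

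The start of the gene is shown first, because the pyrimidine run is the feature that the family is known to share. RefSeq promoter windows of GRCm38.p6 were found for 65 of the 85 genes. Each line gives 20 bases before the annotated start and the first 20 bases from it, on the strand of the gene; capitals mark an unbroken run of 8 or more C or T that touches the stretch from -10 to 20 around the start. The first 5 belong to genes among the largest falls in the D libraries:
Rpl38, chr11:114668560-114668599, plus strand: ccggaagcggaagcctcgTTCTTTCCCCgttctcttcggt
Rpl39, chrX:37085203-37085242, minus strand: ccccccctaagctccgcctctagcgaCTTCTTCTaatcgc
Rplp2, chr7:141447631-141447670, plus strand: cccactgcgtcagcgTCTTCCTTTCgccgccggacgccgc
Rps27, chr3:90213629-90213668, minus strand: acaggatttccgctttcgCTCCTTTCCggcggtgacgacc
Rpl14, chr9:120571497-120571536, plus strand: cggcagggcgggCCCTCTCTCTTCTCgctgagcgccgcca
The next 3 carry a run and belong to genes that did not pass the test:
Rps9, chr7:3704021-3704060, plus strand: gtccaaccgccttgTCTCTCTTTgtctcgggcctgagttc
Rpl15, chr14:18270967-18271006, minus strand: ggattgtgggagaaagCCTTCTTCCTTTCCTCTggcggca
Rpl7a, chr2:26910787-26910826, plus strand: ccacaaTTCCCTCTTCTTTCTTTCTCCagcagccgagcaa
The last 2 have no run of 8 at the annotated start. Rps28 was among the largest falls and Rps2 among the smallest:
Rps28, chr17:33824543-33824582, minus strand: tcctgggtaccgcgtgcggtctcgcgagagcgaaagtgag
Rps2, chr17:24720043-24720082, plus strand: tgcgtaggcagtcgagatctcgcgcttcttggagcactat

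Such a run was present in 32 of the 65 genes (49.2%), against 20.3% of 10266 other tested genes and 19.2% of all 27025 genes with a window. Within the full window of 250 bases before to 50 after the start, read on both strands, CCGGAAG was present in 26 of the 65 (40.0%, against 19.6% of the other tested genes and 9.9% of all). CTCTTTC, whose letters can lie within a pyrimidine run, was present in 18 (27.7%, against 8.9% and 9.3%). AAGATGGC was present in 6 (9.2%, against 5.1% and 3.2%) and TATAAA in 8 (12.3%, against 9.0% and 15.7%). A gene with several annotated starts was counted if any of its windows held the motif. Of the 31 tested ribosomal protein genes with a run, 23 were lower in the D libraries, with a median log2 fold change of -0.41. Of the 31 without one, 20 were lower, with a median of -0.33. The difference between those groups was not tested.

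Estimated counts summed to between 19048247 and 20028110 per library. On the first principal component over all tested genes (64.7% of the variance) D replicate 1, at -16.0, was the D library nearest to the M libraries. D replicate 3, at -54.5, was the farthest. The defining macrophage markers were not all present: Mertk stood at 0.739 ± 0.193 CPM (SD, n = 4; CPM are counts scaled to a common total with TMM factors) in the D and 1.06 ± 0.328 CPM in the M libraries, and Marco was at or near 0. Mrc1 was low as well, at 2.59 and 2.05 CPM in the D and M libraries, and so was C1qa, at 2.00 and 0.723 CPM. Other macrophage markers were clearly present. Csf1r, the M-CSF receptor, stood at 209 ± 22.5 and 162 ± 9.97 CPM. Adgre1 stood at 87.3 and 46.7 CPM, Cd68 at 179 and 192 CPM and Lyz2 at 8145.1 and 4605.5 CPM. The 19 neutrophil markers took 16.9 ± 2.5% of all TPM (transcript levels corrected for length, comparable between genes) in the D and 13.5 ± 0.0737% in the M libraries. The cultures are therefore called by their label only.

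The ribosomal protein genes were lower in the D libraries as a family. Of the 82 that had enough counts to be tested, 59 were lower and 0 higher by edgeR's quasi-likelihood test at an adjusted p under 0.05, where 17.3% of all 12839 tested genes were lower and 17.4% higher. An unadjusted p under 0.05 was reached by 66 of the 82. The log2 fold change was below 0 for all 82 in this fit, against 54.1% of all tested genes. Its median was -0.36, a level 1.29-fold lower, with quartiles of -0.46 and -0.24 and a range of -0.84 to -0.04. The median over all tested genes was -0.03. In 61 of the 82 genes each D library lay below each M library, a pattern held by 18.4% of all tested genes. No ribosomal protein gene was higher in any of 26 alternative fits, while the number lower ran from 47 to 71. The fold sizes are small: the 12 largest run from 1.79-fold to 1.46-fold.

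The 3 genes left untested, Rpl10l, Rpl32l and Rpl39l, were at or near 0. Rpl10l stood at 0 CPM in each D library and at up to 0.20 CPM in M, and Rpl32l at 0 CPM in each D library and up to 0.15 CPM in M. Rpl39l, a paralog of Rpl39 best known from the testis, stood at 0.101 to 0.313 CPM in D and 0.0977 to 0.151 CPM in M.

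The split of calls over all genes depended on the scaling, and the direction of the family did not. With TMM factors 50.1% of all called genes were higher in D, against 31.0% to 33.3% with the deposited FPKM, TPM or library totals alone and 62.0% with offsets that depend on transcript length. Library totals, FPKM and TPM moved the median of all genes from -0.03 to between -0.14 and -0.11 where low values were filtered. Relative to the median of all genes, the median of the ribosomal protein genes stood at -0.33 with TMM factors and at -0.36 to -0.33 in those settings. Without any 1 library it stood at -0.37 to -0.28.

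**Figure D1:**
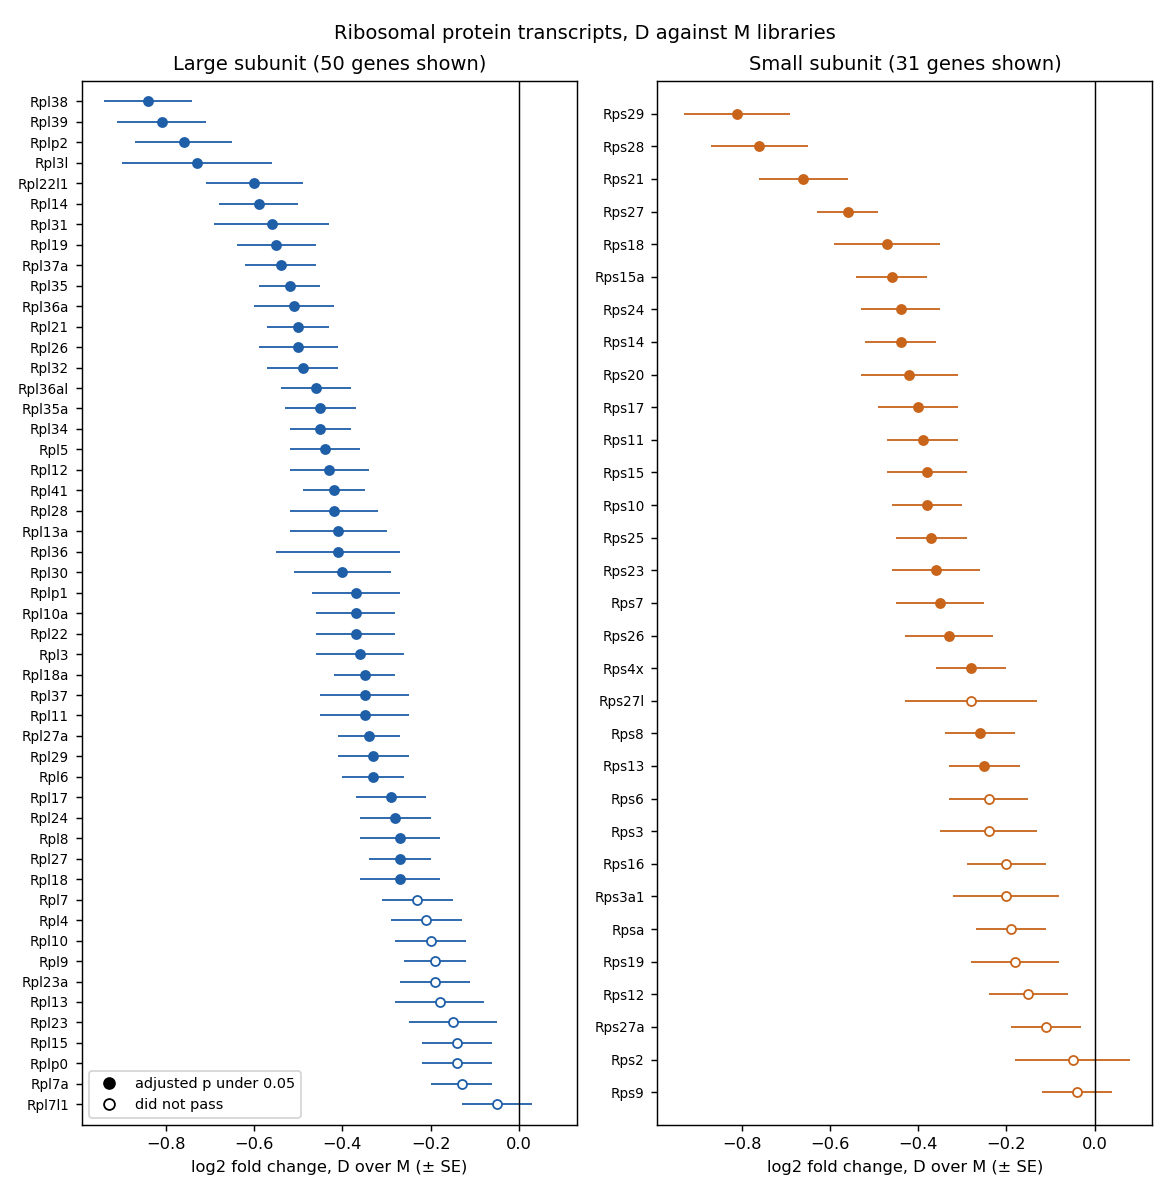
Log2 fold change of D over M (horizontal axis, with SE, 4 libraries a group) for tested genes of the large and the small subunit; filled points passed the test at an adjusted p under 0.05. All points drawn lie below 0, from -0.84 for Rpl38 to -0.04 for Rps9, with 39 filled points in the large and 20 in the small subunit; 1 tested small subunit gene that did not pass is not drawn.

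Summed over the 85 genes, ribosomal protein transcripts held 9.71, 8.60, 7.40 and 8.56% of all TPM in D replicates 1 to 4 and 12.32, 11.14, 10.94 and 11.63% in M replicates 1 to 4. The groups did not overlap: the highest D library lay below the lowest M library. The means were 8.57 ± 0.943% and 11.5 ± 0.614% (SD, n = 4). As a share of counts, which weights genes by transcript length, the means were 3.34 ± 0.384% and 4.43 ± 0.308%. The neutrophil markers took more of the TPM in D, so the share was also computed over the TPM outside those 19 genes: it was 9.26 to 11.28% in D and 12.65 to 14.25% in M, again without overlap. In bulk samples, fewer cells of a kind rich in these messengers and less of them per cell cannot be told apart.

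Libraries of a group differed in the level of the whole family. D replicate 3 was the lowest of the 8 libraries for 70 of the 82 tested genes, and M replicate 1 the highest for 67. Against the mean CPM of the M libraries, the median gene stood at a log2 ratio of -0.21 in D replicate 1, -0.40 in replicate 2, -0.51 in replicate 3 and -0.33 in replicate 4. In the M libraries the same median ran from -0.10 in replicate 3 to 0.12 in replicate 1. D replicate 1 had 76 of the 82 genes below the M mean, D replicates 2 and 3 all 82, and D replicate 4 had 81. Neutrophil markers took 13.98% of TPM in D replicate 1, 16.42% in replicate 2, 20.05% in replicate 3 and 17.15% in replicate 4; their part in the result was not tested. Without D replicate 3, 52 genes were lower, and without M replicate 1, 48. These losses did not stand out, since 47 were lower without D replicate 2 and 48 without D replicate 4. Without D replicate 1, 66 were lower.

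**Figure D2:**
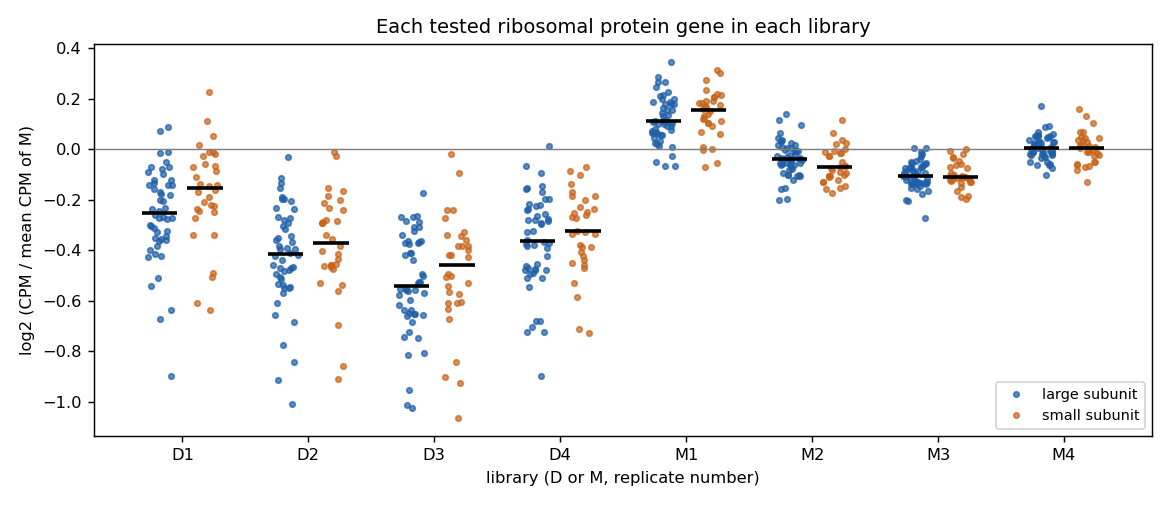
Log2 ratio of the CPM of each tested ribosomal protein gene to its mean CPM over the M libraries (vertical axis), by library, with large subunit genes in blue and small subunit genes in orange and black bars at the median of each. The D libraries sit below 0, with D1 nearest to and D3 farthest from the M libraries, and M1 stands highest.

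Both subunits were lower in the D libraries, the large one by slightly more. Of 50 tested large subunit genes 39 were lower (78.0%), with a median log2 fold change of -0.37 and 41 genes without overlap of the groups. Of 32 small subunit genes 20 were lower (62.5%), with a median of -0.34 and 20 genes without overlap. Leaving out the paralogs gave 36 of 46 and 20 of 31, with medians of -0.37 and -0.35. Large subunit transcripts took 4.74 ± 0.499% of TPM in D and 6.48 ± 0.316% in M, small subunit transcripts 3.83 ± 0.446% and 5.02 ± 0.299%.

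The balance of the subunits was read from the ratio of summed TPM, large over small, within each library. It was 1.2118, 1.2416, 1.2394 and 1.2571 in D replicates 1 to 4 and 1.2681, 1.3059, 1.2919 and 1.2964 in M replicates 1 to 4. All D values lay below all M values, though D replicate 4 and M replicate 1 were close. The means were 1.237 ± 0.0188 and 1.291 ± 0.0161, a difference of -0.0607 on the log2 scale. The ratio leans on a few very abundant genes: without the 5 with the highest TPM (Rps9, Rpl10, Rpl23a, Rps3a1 and Rps2, of which 3 are of the small subunit) the difference was -0.0331. No test was made of the ratio.

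**Figure D3:**
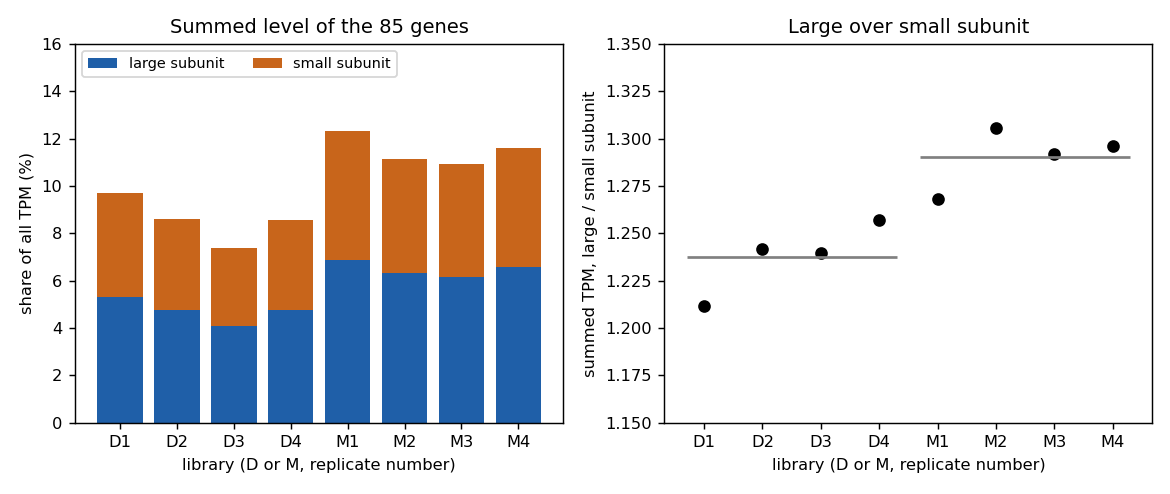
Left, share of all TPM held by the 85 genes in each library, stacked by subunit; right, the ratio of summed TPM of the large over the small subunit in each library, on an axis that does not start at 0, with gray lines at the group means. The share runs from 7.40 to 9.71% in D and from 10.94 to 12.32% in M, and the ratio from 1.212 to 1.257 and from 1.268 to 1.306.

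The genes were also less even in level in the D libraries. Among the genes without the paralogs, the coefficient of variation of TPM across genes was 51.05 ± 1.67% in D (SD over 4 libraries) and 45.7 ± 0.739% in M, at median levels of 974 to 1241 TPM and 1395 to 1611 TPM. In the M libraries the highest mean was that of Rps9 at 3175 TPM. Rps6, the substrate of the S6 kinases, stood at only 48.6 TPM in M and 38.8 TPM in D, the 81st of 85 by mean TPM. Of the 50-base words of the GENCODE transcript chosen for it, 84.6% also occur in the transcripts of 14 other genes, all pseudogenes. The chosen transcript has 878 bases, against 1345 implied for the main transcript by counts and FPKM, so the share is approximate. The estimated count of Rps6, and its level, is therefore uncertain. The same holds to a varying degree for others, with shares of 98.6% for Rps27, 93.3% for Rpl9 and 92.1% for Rpl10. Calls did not sit in such genes alone: 11 of 17 tested genes with under 30% of shared words were lower (median -0.37), and 16 of 25 with over 70% (median -0.28).

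The largest fall was that of Rpl38 (NCBI gene 67671, chromosome 11, 114667818 to 114672333, GRCm38), a small large subunit protein known for selective translation of Hox messengers in the embryo. It stood at 83.1, 65.7, 65.0 and 81.2 CPM in D replicates 1 to 4 and at 142.6, 141.4, 114.8 and 130.1 CPM in M replicates 1 to 4. The D libraries were all lower, with a wide gap to the M libraries (log2 fold change -0.84 ± 0.10 SE, 1.79-fold lower, adjusted p = 0.000285). Rpl39 (NCBI gene 67248, chromosome X, 37082518 to 37085222), which lines the exit tunnel, was at 177.2, 146.3, 136.8 and 166.7 CPM in D and 313.9, 263.6, 246.8 and 277.8 CPM in M. It did not overlap either (-0.81 ± 0.10, adjusted p = 0.00029).

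In the small subunit, Rps29 (NCBI gene 20090, chromosome 12, 69157722 to 69159186), a zinc-binding protein of the head, was at 170.0, 145.9, 126.5 and 161.4 CPM in D and 304.9, 237.3, 230.7 and 284.3 CPM in M (-0.81 ± 0.12, adjusted p = 0.000662). Rps28 (NCBI gene 54127, chromosome 17, 33823036 to 33824562), at the exit of the messenger channel, was at 148.3, 111.9, 110.8 and 127.2 CPM in D and 244.5, 186.7, 194.7 and 215.6 CPM in M (-0.76 ± 0.11, adjusted p = 0.000832). In both genes every D library lay below the lowest M library. Rps21 was at 114.8, 108.1, 93.7 and 128.0 CPM in D and 166.8, 162.6, 175.3 and 195.7 CPM in M (-0.66 ± 0.10). Rps27, a zinc-finger protein, was at 251.6, 239.6, 221.5 and 244.8 CPM in D and 367.9, 331.0, 348.0 and 365.2 CPM in M. Its libraries were tight within each group (-0.56 ± 0.07, adjusted p = 0.000277).

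Of the other large falls, Rpl14 was at 273.6 to 347.6 CPM in D and 439.3 to 498.5 CPM in M (-0.59 ± 0.09). Rpl19 was at 356.7 to 480.2 CPM in D and 610.0 to 633.7 CPM in M (-0.55 ± 0.09). Rpl31, at the rim of the exit tunnel, was at 120.5, 77.7, 79.2 and 82.9 CPM in D and 127.2 to 142.4 CPM in M (-0.56 ± 0.13). In Rpl31 the first D replicate stood far above the other D libraries and close to the M libraries.

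At the other end stood Rps9, Rps2, Rpl7l1 and Rps27a, which did not pass. Rps9 (NCBI gene 76846, chromosome 7, 3703954 to 3706897), at the entry of the messenger channel and the most abundant member, was at 1101.3, 1068.3, 1075.6 and 990.8 CPM in D and 1226.4, 1016.8, 1047.4 and 1069.5 CPM in M. Its groups overlapped throughout (-0.04 ± 0.08, adjusted p = 0.714). Rps2 (NCBI gene 16898, chromosome 17, 24718121 to 24721927), a neighbour of Rps9 in the channel, was at 1407.0, 1193.0, 898.9 and 1146.8 CPM in D and 1412.5, 1142.7, 1110.2 and 1145.5 CPM in M (-0.05 ± 0.13, adjusted p = 0.789). Rps27a, which is made as a fusion with ubiquitin, was at 664.0 to 743.9 CPM in D and 689.7 to 838.2 CPM in M (-0.11 ± 0.08, adjusted p = 0.293). The nominal 95% interval, a normal approximation that is too narrow with so few libraries, ran from -0.20 to 0.12 for Rps9. That of Rps2 ran from -0.31 to 0.21. The estimate for Rps27 lay outside both, but differences between these genes were not tested. The sign of Rps2, Rps9 and Rpl7l1 turned in some alternative fits.

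The remaining genes of highest TPM did not pass either. Rpl10, which joins the large subunit last, was at 925.2 to 1066.4 CPM in D and 1055.9 to 1249.0 CPM in M (-0.20 ± 0.08, adjusted p = 0.0824; 0.0352 with the replicate number as a block). Rpl23a, a docking point at the tunnel exit, was at 623.2 to 685.7 CPM in D and 698.9 to 832.8 CPM in M, without overlap (-0.19 ± 0.08, adjusted p = 0.0688; 0.0408 with the block). Rps3a1 was at 917.7 to 1307.3 CPM in D and 1103.6 to 1383.0 CPM in M (-0.20 ± 0.12, adjusted p = 0.211; 0.0387 with the block). Without D replicate 1, the highest of its D libraries, Rps3a1 was at -0.29 (adjusted p = 0.0244). Across the 82 genes the log2 fold change and the log2 mean TPM had a Spearman correlation of 0.27, a description over genes that share their libraries.

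By place in the ribosome, the lists below were written after the values had been seen and serve as description. The P stalk, which recruits the elongation factors, is built of Rplp0 and the dimers of Rplp1 and Rplp2. Rplp0 was at 1198.8, 1130.0, 1099.2 and 1080.4 CPM in D and 1370.4, 1209.6, 1130.4 and 1250.4 CPM in M, with overlap (-0.14 ± 0.08, adjusted p = 0.203). Rplp1 was at 334.7, 278.3, 253.4 and 263.1 CPM in D and 394.7, 335.3, 350.0 and 377.9 CPM in M, where the highest D and the lowest M library nearly met (-0.37 ± 0.10, adjusted p = 0.0138; 0.0519 without D replicate 4). Rplp2 (NCBI gene 67186, chromosome 7, 141447651 to 141451359) was at 245.5, 199.3, 184.6 and 216.9 CPM in D and 430.1, 338.6, 316.1 and 345.7 CPM in M, with no overlap (-0.76 ± 0.11, adjusted p = 0.000845). The 3 stalk genes thus stood at different distances from the M level; the differences between them were not tested.

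Of 9 proteins around the exit tunnel 7 were lower (77.8%, median -0.50), Rpl39, Rpl31, Rpl19, Rpl35, Rpl26, Rpl22 and Rpl17. That share is near the 78.0% of all tested large subunit genes. In all 9 the groups did not overlap, as in 41 of the 50 tested large subunit genes. Those of the 9 that did not pass were Rpl4 (-0.21, adjusted p = 0.0536, and 0.0285 with the replicate block) and Rpl23a. Rpl5 (-0.44) and Rpl11 (-0.35), which bind the small ribosomal RNA of the large subunit and, when free, the p53 ligase Mdm2, were both lower. The groups of Rpl11 overlapped, and its call ended in 5 alternative fits. With curated transcripts only, which leaves out its predicted main transcript, Rpl11 was at 0.04 (adjusted p = 0.913). At the entry of the messenger channel 0 of 3 passed, Rps2, Rps3 (-0.24, adjusted p = 0.123) and Rps9. Among all tested small subunit genes 62.5% were lower. With the replicate block Rps3 passed (-0.23, adjusted p = 0.0262). Of 3 genes of the beak, Rps10 was lower (-0.38), and Rps12 (-0.15, adjusted p = 0.199) and Rps27a did not pass. Rpsa, also known as the laminin receptor, was at 1200.2, 1109.5, 1045.4 and 1057.6 CPM in D and 1409.1, 1216.6, 1170.8 and 1247.5 CPM in M (-0.19 ± 0.08, adjusted p = 0.0961; 0.0423 with the replicate block). One D and one M library of Rpsa crossed. Of the 10 genes listed here as mutated in Diamond-Blackfan anaemia 9 were lower (median -0.39), against 72.0% of the whole family. The exception within this list was Rps19, the gene most often affected (-0.18, adjusted p = 0.174). Rps19 passed with the replicate block (adjusted p = 0.041).

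Paralogs were measured beside their parent genes. Rpl22l1 was at 61.9, 49.2, 47.2 and 49.3 CPM in D and 89.4, 85.4, 65.4 and 75.7 CPM in M (-0.60 ± 0.11, adjusted p = 0.00294). Its parent Rpl22 was at 191.4, 176.4, 143.3 and 185.5 CPM in D and 227.0, 218.1, 221.0 and 234.2 CPM in M (-0.37 ± 0.09, adjusted p = 0.00963). Both fell, with no overlap in either. Rpl36al (-0.46 ± 0.08) and Rpl36a (-0.51 ± 0.09) also fell together, at 81.7 to 107.3 against 122.2 to 134.8 CPM and at 109.0 to 142.1 against 167.0 to 191.4 CPM.

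Rpl3l, the form of Rpl3 best known from heart and skeletal muscle, was barely present, at 1.51, 1.79, 1.99 and 1.51 CPM in D and 2.69, 2.85, 2.55 and 3.16 CPM in M (-0.73 ± 0.17, adjusted p = 0.00906). This value rests on its less abundant transcripts: with the most abundant transcript alone it was 0.05 (adjusted p = 0.94). Rpl3 was at 775.8, 653.7, 579.6 and 649.3 CPM in D and 952.2, 856.5, 776.8 and 821.8 CPM in M (-0.36 ± 0.10, adjusted p = 0.0191). Its D and M libraries met at 775.8 and 776.8 CPM, and leaving out D replicate 2 (adjusted p = 0.0514), D replicate 4 (0.0603) or M replicate 1 (0.0564) ended the call. Rpl7l1 was at 127.8, 117.9, 97.3 and 121.4 CPM in D and 115.1, 123.1, 120.8 and 122.6 CPM in M and overlapped (-0.05 ± 0.08, adjusted p = 0.650). Rpl7 was at 779.5, 730.5, 694.9 and 721.1 CPM in D and 988.7, 827.3, 809.7 and 816.7 CPM in M. Its groups did not overlap, and it lay at the threshold (-0.23 ± 0.08, adjusted p = 0.0517; 0.0224 with the replicate block). Rps27l, a target of p53, was at 78.8, 64.2, 42.4 and 64.9 CPM in D and 73.2, 71.8, 75.6 and 83.2 CPM in M. It did not pass over all libraries (-0.28 ± 0.15, adjusted p = 0.182), and was at -0.39 (adjusted p = 0.0445) without D replicate 1.

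Genes with short transcripts fell by more. Lengths here are those implied by the deposited counts and FPKM, not annotated lengths. The 2 can differ, as for Rpl38 with 268 bases against 371 in its GENCODE transcript. Of 26 tested genes whose main transcript has up to 500 bases by this measure, 24 were lower (median -0.46). From 500 to 750 bases 16 of 25 were lower (median -0.27), from 750 to 1000 bases 9 of 13 (median -0.35), from 1000 to 1500 bases 5 of 9 (median -0.33) and above that 5 of 9 (median -0.37). The 8 shortest, which include Rpl38, Rps27, Rps29, Rps21 and Rps28, had a median of -0.71. The Spearman correlation of log2 fold change and length over the 82 genes was 0.43, at 0.45 in the large and 0.41 in the small subunit, and 0.05 over the 12757 other tested genes. These points share their libraries and the correlation is given as a description.

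Other short transcripts were lower too, by less. Among 120 other tested genes of up to 500 bases 31 were lower and 10 higher, with a median of -0.17, and the medians of the longer classes were -0.12, -0.07, -0.06 and -0.02. By library, the ribosomal protein genes of up to 500 bases stood at median log2 ratios of -0.34, -0.51, -0.64 and -0.47 to the M mean in D replicates 1 to 4, and the longer ones at -0.16, -0.32, -0.40 and -0.27. Other genes of up to 500 bases stood at -0.07, -0.17, -0.22 and -0.13 in the same libraries. With offsets fitted on the length of all other genes, a setting added once the data had been seen, 54 of 82 genes were lower, all of them among the 59, with a median of -0.28. The correlation with length was then 0.34. What part fragment size or RNA quality had in the pattern was not tested.

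**Figure D4:**
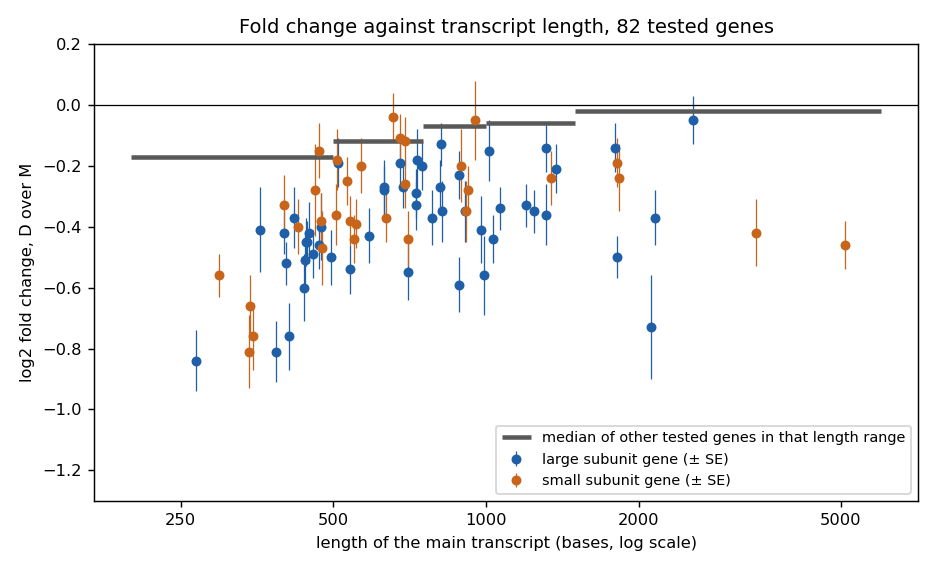
Log2 fold change of D over M (vertical axis, with SE) against the length of the main transcript for the 82 tested ribosomal protein genes. Length is in bases on a log scale, as implied by the deposited counts and FPKM. Thick gray lines give the median of the other tested genes in each length range. Genes under 500 bases reach down to -0.84, and the gray medians rise from -0.17 to -0.02.

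For 15 genes with at least 2 transcripts of 5% or more each, the share of the main transcript was compared between the groups. By an exact two-sided permutation test, 4 against 4 libraries allow no p below 0.0286, and 9 of the 15 genes would have to reach it for any adjusted p under 0.05. The adjusted test therefore says nothing on whether shares differed; 0 of the 15 had an unadjusted p under 0.05. The largest difference was in Rpl11, whose main transcript took 63.4 ± 5.69% of its counts in D and 72.2 ± 3.62% in M (exact permutation p = 0.0571, adjusted p = 0.214). In Rpl38 the main transcript took 78.0 ± 2.57% and 81.7 ± 1.38%. Rpl10a, Rps10, Rps18 and Rps28 are listed with repeated entries of the main transcript that share its counts almost equally, so for these genes the share of 1 entry is not that of an isoform.

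Rack1 and Fau, genes of the ribosome whose symbols fall outside the rule, were lower as well. Rack1, a scaffold on the head of the small subunit, was at 726.2, 646.0, 592.4 and 649.2 CPM in D and 924.4, 822.0, 807.0 and 844.0 CPM in M (-0.38 ± 0.08, adjusted p = 0.00588). Fau, a fusion that yields a small subunit protein, was at 367.9 to 388.5 CPM in D and 436.7 to 477.4 CPM in M (-0.27 ± 0.06, adjusted p = 0.00862; -0.16 and 0.109 with the length offsets). In both the groups did not overlap.

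Genes that build or use the ribosome did not show shares of called genes of that size, though most lay below 0. Of 45 tested assembly and nucleolar factors 5 were lower and 0 higher (11.1% lower, against 17.3% of all tested genes), with a median of -0.16; Gnl2, a GTPase of large subunit assembly, was at -0.37 (adjusted p = 0.00453; call lost with the most abundant transcript alone). Of 12 genes of RNA polymerase I, which transcribes ribosomal RNA, 2 were lower and 0 higher, Taf1c (-0.41) and Ubtf (-0.38), and both calls ended with curated transcripts only. Of 14 chaperones of nascent proteins or single ribosomal proteins 3 were lower and 0 higher, among them Naca (-0.35 ± 0.07; 321.9 to 368.0 CPM in D and 420.7 to 437.0 CPM in M). The mitochondrial ribosome had 4 of 49 large subunit genes lower and 1 higher (median -0.09) and 4 of 29 small subunit genes lower and 0 higher (median -0.15). The log2 fold change was below 0 for 42 of the 45 assembly factors, 10 of the 12 polymerase I genes and 11 of the 14 chaperones. In the mitochondrial ribosome it was below 0 for 37 of 49 and 25 of 29 genes, against 54.1% of all tested genes.

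Among 12 elongation and termination factors 3 were lower (25.0%, against 17.3% of all tested genes) and 1 higher. Eef2k, the kinase that inhibits elongation factor eEF2, was lower, at 59.4 to 74.2 CPM in D and 93.0 to 100.7 CPM in M (-0.58 ± 0.08, adjusted p = 0.000442). Eef1b2 (-0.33) and Tpt1 (-0.26), whose messengers also belong to the TOP class, were lower, and Etf1 was higher (0.18, adjusted p = 0.0463; call lost in 14 alternative fits). Of 35 initiation factors 3 were lower (8.57%) and 0 higher, the eIF3 subunits Eif3g (-0.39), Eif3c (-0.27) and Eif3a (-0.33). The log2 fold change was below 0 for 26 of the 35, and for 7 of the 12 elongation and termination factors. In the list of ribosome stalling and rescue 6 of 16 were lower (37.5%) and 1 higher (median -0.17). The lower ones included Eif2ak4 (-0.49), the kinase that senses uncharged tRNA, and Rack1, which the list shares with the genes above.

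The 16 genes of TOP control went both ways, with 2 lower (12.5%) and 3 higher. These counts are near the shares over all tested genes, 17.3% lower and 17.4% higher. Among the higher, Rps6ka1 was at 0.28 ± 0.07 (adjusted p = 0.0139) and Rps6ka3 at 0.40 ± 0.11 (adjusted p = 0.0143). Their calls ended in 2 and 4 alternative fits. Rps6kb1, the S6 kinase downstream of mTOR, was at 59.6, 69.5, 61.1 and 64.6 CPM in D and 129.7, 121.0, 116.5 and 104.4 CPM in M, far apart (-0.89 ± 0.08, adjusted p = 5.08e-05). Mtor was at 53.03 to 59.61 CPM in D and 65.1 to 73.7 CPM in M (-0.35 ± 0.07, adjusted p = 0.00346). The calls of Rps6kb1 and Mtor ended when only curated transcripts were counted (adjusted p = 0.20 and 0.516). Of 10 genes of Myc and its partners 3 were higher and 2 lower (20.0%). Mxd1, which competes with Myc for Max, was at 859.3 to 1295.5 CPM in D and 545.7 to 674.8 CPM in M (0.91 ± 0.12, adjusted p = 0.000499). Mxi1 (0.49, adjusted p = 0.00498) and Max (0.32, adjusted p = 0.0193) were higher too. These 2 calls ended in 1 and 6 alternative fits. Mxd4 went the other way (-0.62 ± 0.14, adjusted p = 0.0073). Of 18 genes of p53 and its targets 2 were lower (11.1%) and 1 higher (median -0.04).

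**Figure D5:**
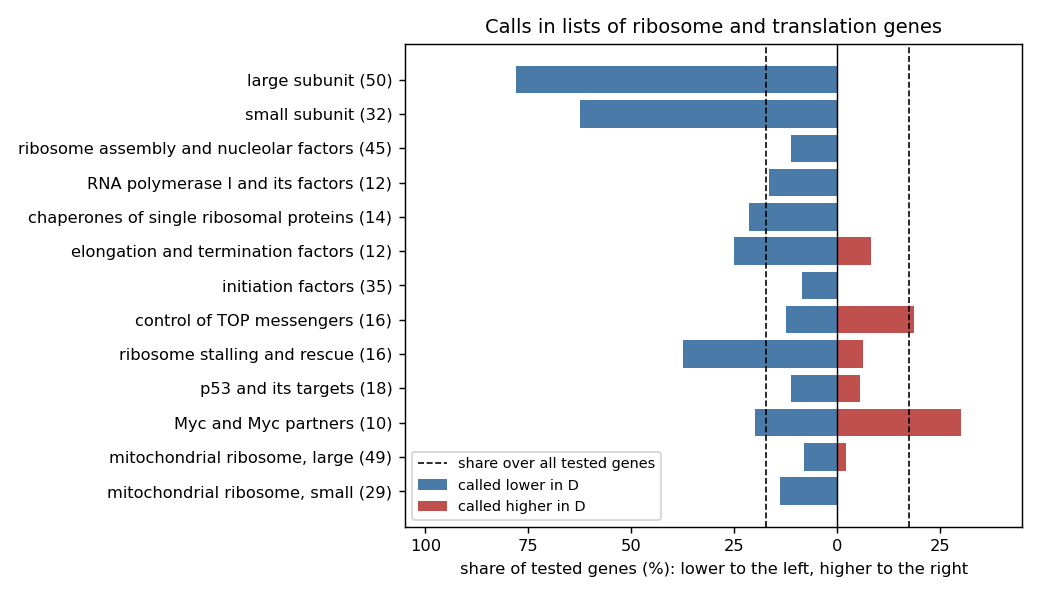
Share of tested genes called lower (bars to the left) or higher (to the right) in the D libraries for each list, with the number of tested genes in brackets and dashed lines at the shares over all tested genes, 17.3% lower and 17.4% higher. The large and small subunit bars reach 78.0% and 62.5%; the assembly, initiation and mitochondrial ribosome lists stay to the right of the 17.3% line.

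Markers of several cell types moved between the same libraries. Over all tested genes 17.3% were lower and 17.4% higher. Of 17 B-cell markers 13 were lower and 0 higher (median -2.78), with summed levels of 112 to 348 TPM in D and 1549 to 2006 TPM in M and none at 0 throughout. All 8 megakaryocyte markers were lower (156 to 307 against 503 to 689 TPM), as were 5 of 9 dendritic cell markers (90.2 to 212 against 234 to 256 TPM). Higher were 13 of 19 neutrophil markers (139800 to 200500 against 134100 to 135900 TPM), 11 of 19 macrophage markers (13700 to 20180 against 9622 to 11310 TPM), 7 of 8 markers of basophils and mast cells (1290 to 1922 against 604 to 840 TPM), 5 of 7 of natural killer cells (110 to 126 against 84.4 to 91.4 TPM) and 5 of 10 of T cells, with 1 lower (59.4 to 94.1 against 62.8 to 74.1 TPM). Of 7 plasma cell markers 3 were lower and 1 higher. Of 11 erythroid markers 1 was lower (9.09%), at sums that overlapped (4173 to 23140 against 15320 to 27780 TPM). Proliferation genes were higher in 11 of 21 and lower in 0, with overlapping sums of 1782 to 2125 against 1825 to 1865 TPM. The part that such shifts in cell makeup had in the level of the ribosomal protein genes was not tested.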

How the data were processed

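Polyadenylated RNA of 8 first-phase libraries was sequenced. Per the labels' design text, SOAPnuke 1.5.6 removed poor reads and the rest were aligned to mm10 by software spelled HISTA2 (2.1.0). Quantifier, annotation release and strand setting: not given in the sources used here. For each RefSeq transcript the authors deposited an unnormalized estimated count. The authors' deposited TPM and FPKM are scaled by transcript length, and a deposited signal, the authors' normalized counts, was only checked; 8 columns of group means were not used.

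Estimated counts were summed per NCBI gene and rounded to whole numbers, and genes were named with the RefSeq table of GRCm38.p6. Groups were compared in R 4.3.3 with edgeR 4.0.16 (quasi-likelihood test with a robust fit, group as the only term, TMM factors) after filterByExpr (minimum count 10, minimum total 15), with Benjamini-Hochberg adjustment over all 12839 tested genes and a threshold of 0.05. CPM use TMM-scaled totals; the biological coefficient of variation was 12.4%. In simulated counts 200 of 12756 genes were changed, with the same dispersion for every gene. Of these, 71.7% of changes of 1.5-fold and 97.2% of 2-fold were recovered. In the data 34.7% of tested genes were called, so these rates need not hold there. Falls as small as the 1.29-fold median of the family were not simulated. Shared sequence was measured in words of 50 bases for a chosen GENCODE M21 transcript of each gene, against the transcripts of all other genes.

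The members and lists were chosen with earlier results of these data known. Given in full, by rule, were up to 12 called genes with the largest change, the 4 nearest to no change, the 5 of highest TPM, the paralogs with their parents, the P stalk genes, Rpsa, Fau and Rack1; from other lists, up to 4 with the lowest p. Some items are not reported here. Deviations of same-numbered D and M libraries from their group means correlated at 0.115, 0.131, 0.118 and 0.182, so a fit with the replicate number as a block was treated as paired, a pairing that comes from the numbers in the labels. Alternatives covered scaling, test (DESeq2 1.42.0, limma 3.58.1), filter, pseudocount, unit, transcripts, block and each library left out.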

Additional observations from a re-analysis of the deposited data

Results flagged for a closer look

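In 4 of 66 groups of 4 libraries checked, over the genes given in full, a single library stood apart from the other 3 by more than Dixon's criterion allows; chance flags about 1 in 20 groups. D replicate 1 stood above the other D libraries for Rpl31, at 120.5 CPM against 77.7 to 82.9 CPM, and for Rpl22l1, at 61.93 CPM against 47.2 to 49.3 CPM. M replicate 1 stood above the other M libraries for Rpl7, at 988.7 CPM against 809.7 to 827.3 CPM, and for Rps2, at 1412.5 CPM against 1110.2 to 1145.5 CPM.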

How the results depend on the processing

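Over 26 alternatives 47 to 71 genes were lower and 0 higher; 43 were lower in each of them, 15 in some alternative only, and 8 in none, among them Rpl13, Rpl15, Rpl23, Rpl7l1, Rps2, Rps27a and Rps9. Leaving out 1 library gave 47 (without D replicate 2) to 66 (without D replicate 1) lower genes, and 45 remained whichever library was left out. With the replicate number as a block 70 were lower, including all 59; beyond the calls printed with the results, it added Rpl9, Rps16 and Rps6. Without D replicates 1 and 3, chosen after the data were seen, 54 were lower. The summed level differed by -2.94 percentage points of TPM and by -1.1 points of counts. The bases are unlike, since counts weight short transcripts less. The D mean was 0.7445 of the M mean by TPM and 0.7524 by counts. Leaving out 1 library gave differences of -3.32 to -2.55 points of TPM. The log2 ratio of large over small subunit differed by -0.0607 and, without the 5 most abundant genes, by -0.0331; leaving out 1 library gave -0.0691 to -0.0506.

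The sign turned for Rpl11 with curated transcripts only (0.04), for Rpl3l with the most abundant transcript only (0.05), for Rpl7l1 without D replicate 3 (0.04) and without D replicates 1 and 3 (0.01), for Rps2 without D replicate 3 (0.07), without M replicate 1 (0.04) and with length offsets (0.01), and for Rps9 without D replicate 4 (0.01), without M replicate 1 (0.02) and with length offsets (0.05); the cause was not tested. Leaving out 1 library moved Rpl7l1 between -0.08 and 0.04, Rps2 between -0.13 and 0.07 and Rps9 between -0.07 and 0.02. No transcript share passed with TPM either, in a test too small to pass. Depth limits mainly Rpl3l and the 3 untested genes, whose counts are the lowest.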
